A study of Mus musculus with 8 samples.

Results

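The genes of the cytoplasmic ribosomal proteins were examined in sorted blood stem cells, with the large (60S) and small (40S) subunits kept apart. Members were protein-coding genes named Rpl or Rps with a number and at most 1 letter a, l or x, plus Rpsa, Rplp0, Rplp1 and Rplp2, with 10 or more counts in 4 or more of the 8 libraries. Of 53715 genes in the count tables, 83 matched by name, 80 of these were protein-coding, and 78 reached the count rule, 47 of the large and 31 of the small subunit. Rpl10l had 0 counts in every library, which allows up to 3 counts per library. Rpl3l had 8 counts in WT replicate 3 and 0 elsewhere, and Rpl39l was the member closest to the limit, with 10 or more counts in exactly 4 libraries. The 3 non-coding matches, Rpl32l, Rpl6l and Rps4l, are annotated pseudogenes and were left out.

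The tested libraries came from 4 mice labelled as Gata2 heterozygotes with Mx1-Cre (called Heterozygote here), set against 4 wild-type mice (WT). GATA2 is a zinc-finger transcription factor needed by blood stem cells, and Mx1-Cre is a recombinase transgene driven by an interferon-inducible promoter. Mice of both groups were 8 to 12 weeks old and had 6 doses of pIpC, a double-stranded RNA mimic that induces interferon. Haematopoietic stem cells of the bone marrow were sorted by the surface markers LSK (no lineage markers, Sca-1 and Kit present), absence of CD48 and presence of CD150, and total RNA was depleted of ribosomal RNA before sequencing. The labels name Mx1-Cre for the heterozygotes alone and give no Cre status for WT, so the transgene and the Gata2 allele cannot be told apart, and the share of cells that had recombined was not measured.

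A ribosome holds 1 copy of most of its proteins, built around ribosomal RNA in the nucleolus and joined into the subunits that translate mRNA. Transcripts of these genes belong to the TOP class, which start with a C and a run of pyrimidines and whose translation is controlled by mTOR and LARP1. Blood stem cells keep protein synthesis low, and inherited loss of 1 copy of several of these genes causes Diamond-Blackfan anaemia in humans, a failure of red cell production.

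Totals ran from 16750778 to 20042384 assigned fragments in Heterozygote libraries and from 19037864 to 22861884 in WT libraries. The genotype label was not borne out by the Gata2 level. Gata2 had 35.5, 61.9, 36.7 and 45.1 CPM (counts scaled to a common library size by TMM) in Heterozygote replicates 1 to 4, against 30.1, 45.3, 29.1 and 38.5 CPM in WT replicates 1 to 4, a log2 fold change of 0.33 (SE 0.23, edgeR quasi-likelihood adjusted p = 0.858). The count covers the whole gene, so it does not show whether the deleted part was lost, and Heterozygote and WT below stand for the libraries labelled so. The 10 stem cell markers (Procr, Hlf, Mecom and others) were all tested, with a summed level of 751 to 887 CPM in Heterozygote libraries and 684 to 1131 CPM in WT libraries. Summed levels were 455 to 741 CPM in Heterozygote and 632 to 874 CPM in WT libraries for 4 megakaryocyte markers. They were 33.1 to 134 CPM in Heterozygote and 60.2 to 139 CPM in WT libraries for 6 granulocyte markers, and 20.1 to 48.2 CPM in Heterozygote and 34.9 to 75.6 CPM in WT libraries for 7 erythroid markers. The 2 monocyte markers summed to at most 1.84 CPM in Heterozygote and 2.94 CPM in WT libraries, the 4 B cell markers to at most 0.682 CPM in Heterozygote and 5.03 CPM in WT, and the 3 T cell markers to at most 0.350 CPM in Heterozygote and 0.441 CPM in WT. Pax5, Cd3e and Cd3g had 0 counts in all 8 libraries. The part of other cells in the results below was not tested.

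Start sites were searched for a pyrimidine motif like that of the TOP class. RefSeq promoter sequence (build GRCm38.p6) was at hand for 58 of the 78 members. The windows below run from 15 bases before the start site to 15 bases from it onward, 5′ to 3′ on the gene's strand, with the searched motif CTTTCC in capitals. They are shown because they hold the motif in members described below. In Rpl39l the motif lies upstream of the annotated start, and in Rpl35 it begins upstream and ends at the annotated start base. Rpl4 is shown beside them as a member without the motif, whose pyrimidine run lies upstream of the annotated start.
Rpl35 (chr2:39005117-39005146, minus strand): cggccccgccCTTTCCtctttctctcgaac
Rps27 (chr3:90213634-90213663, minus strand): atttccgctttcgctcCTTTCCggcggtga
Rpl18 (chr7:45718056-45718085, plus strand): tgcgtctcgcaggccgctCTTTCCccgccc
Rpl35a (chr16:33056467-33056496, plus strand): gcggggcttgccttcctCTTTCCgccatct
Rps10 (chr17:27635230-27635259, minus strand): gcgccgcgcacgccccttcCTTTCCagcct
Rpl39l (chr16:10170213-10170242, plus strand): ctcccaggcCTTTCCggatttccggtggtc
Rpl4 (chr9:64173372-64173401, plus strand): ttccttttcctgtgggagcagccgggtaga

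CTTTCC lay on the gene's strand of this window in 10 of 58 members (17.2%), 8 of 35 of the large and 2 of 23 of the small subunit, against 451 of 27025 genes in the promoter table (1.67%). On either strand the members stayed at 10 and all genes came to 849 (3.14%). In the full 300 bases, the motif CCGGAAGT, the core bound by ETS-family factors, was present on either strand in 12 of 58 members (20.7%) and 1164 of 27025 genes (4.31%). The motif AAGATGGC, the core bound by YY1, was present in 5 members (8.62%) and 862 genes (3.19%). None of the searched motifs contains another. These are matches of letters, and a gene counted if any of its listed start sites matched.

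The members together took between 5.52% and 6.32% of all assigned fragments in Heterozygote libraries and between 5.13% and 6.23% in WT libraries. Levels of different genes were compared as CPM per kilobase of the reference transcript. On that scale the small subunit members had a median of 1018 and the large subunit members of 616. The highest small subunit member was Rps14, at 4510 ± 555 CPM per kilobase (SD, n = 8 libraries), whose loss on 1 chromosome is linked to the anaemia of the human 5q- syndrome. Rps27 followed at 3494 ± 649 and Rps18 at 2866 ± 303 CPM per kilobase. The means of Rps14 and Rps27, and those of Rps27 and Rps18, differed by less than the sum of their SDs. Those SDs run over libraries in which the members moved together, and within each library the order Rps14, Rps27, Rps18 held. The large subunit was led by Rpl32, at 4305 ± 401 CPM per kilobase. Rplp0 came next at 2279 ± 192, then Rpl13 at 1740 ± 137 and Rplp1 at 1598 ± 207, the last pair within their spread. Rplp0 and Rplp1 belong, with Rplp2 at 733 ± 84.9 CPM per kilobase, to the acidic stalk that recruits translation factors to the large subunit, and 1 Rplp0 carries several copies of the other proteins, so the transcript order is not that of the proteins.

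At the low end of the large subunit stood Rpl39l at 2.24 ± 2.81, Rpl24 at 9.88 ± 1.18 and Rpl13a at 103 ± 6.61 CPM per kilobase. The low end of the small subunit held Rps20 at 113 ± 10.6, Rpsa, which is also known as the laminin receptor, at 300 ± 30.5 and Rps24 at 306 ± 37.1 CPM per kilobase. Counting bears on these values. Fragments that map to several places or to several genes of 1 strand were not counted, and in Rpl24 47% of exonic bases lie inside another annotated gene of the same strand (Gm28037) and 80.9% of its 75-base windows occur in another transcript. In Rpl13a, a host of small nucleolar RNAs, the overlapped share was 35.4% (Gm45713). The other members had at most 14.5% of exonic bases overlapped. Over all members the median share of 75-base windows found in another gene's transcripts was 50.3%, with 40 members above 50% and with Rpl39l and Rps3 among the 3 at 0. The highest share was 98.5% in Rps27, at the second highest level of its subunit. Levels also rest on the transcript chosen, since 31 members moved by more than 10 ranks when the exonic length of the deposited tables was used instead, and the Rps20 reference transcript is 3706 bases long for a coding part of 357 bases.

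**Figure D1:**
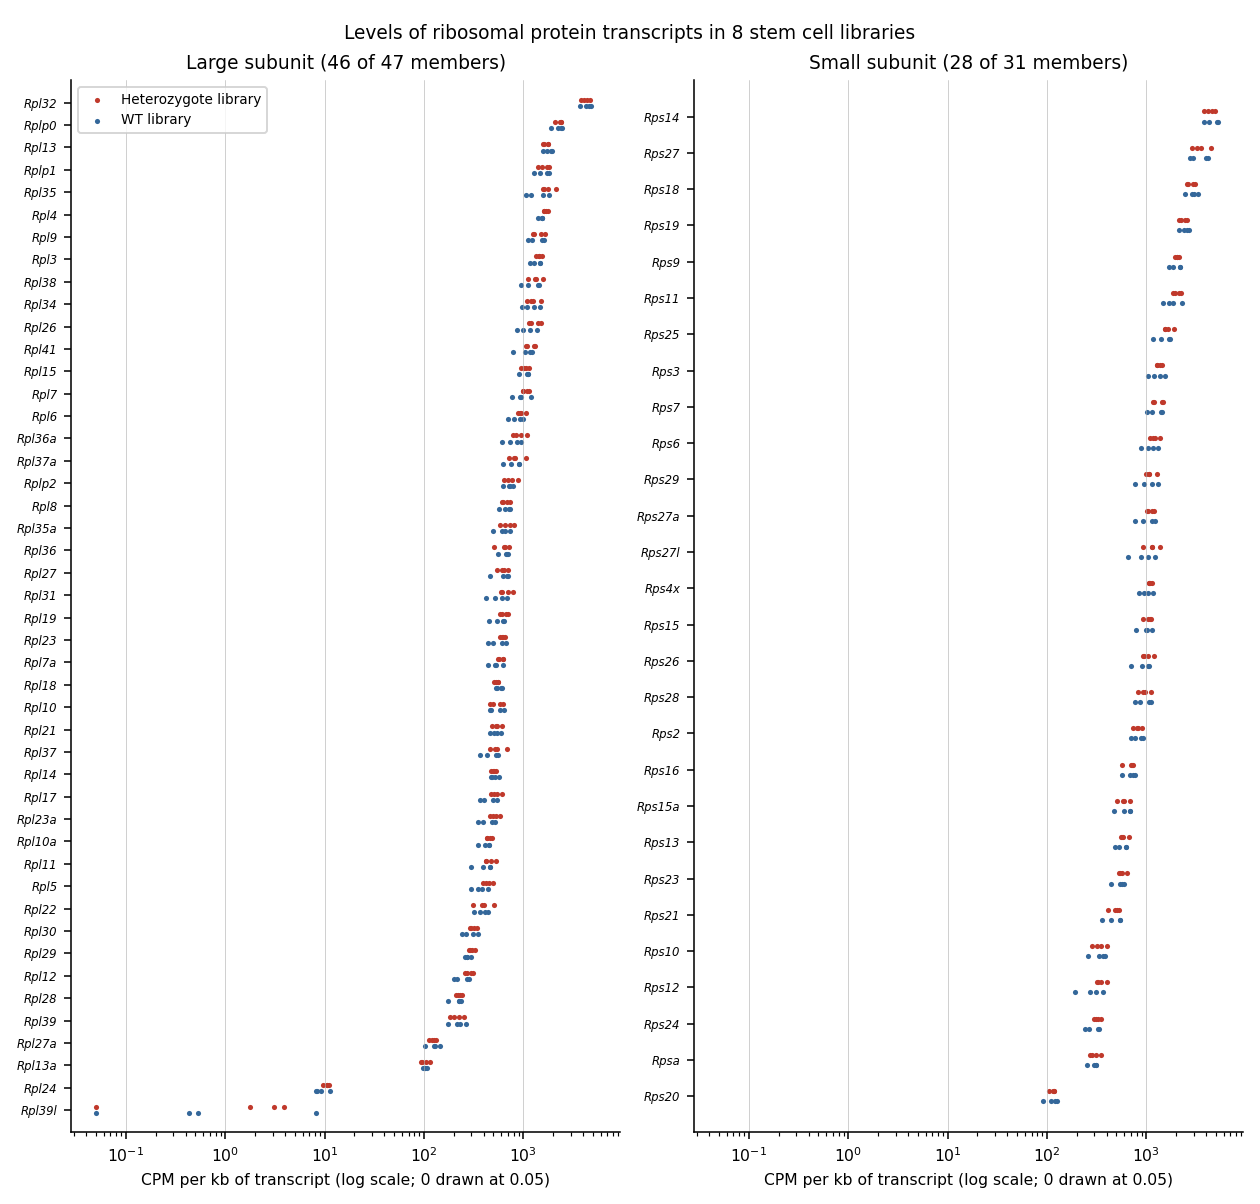
CPM per kilobase of transcript (log axis) for 46 of 47 large subunit members (left panel) and 28 of 31 small subunit members (right panel), sorted by mean, with Heterozygote libraries in red drawn above WT libraries in blue, 1 point per library and libraries with 0 counts at 0.05. All but Rpl39l and Rpl24 have means of 103 CPM per kilobase or more, and the points of the 2 genotypes overlap in every row except Rpl4.

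The members moved together from library to library, and the differences among libraries of 1 genotype were larger than those between genotypes. Leaving out Rpl39l, which was close to 0, the median deviation of large subunit members from their own mean over the 8 libraries was -0.06, -0.01, 0.19 and 0.11 (log2 CPM) in Heterozygote replicates 1 to 4, against -0.10, -0.32, 0.12 and 0.08 in WT replicates 1 to 4. For the small subunit the medians were -0.07, 0.02, 0.21 and 0.07 in Heterozygote replicates 1 to 4, against -0.11, -0.33, 0.18 and 0.12 in WT replicates 1 to 4. Heterozygote replicate 3 was thus the high library and WT replicate 2 the low one, in both subunits. WT replicate 2 held the lowest value of 67 of the 78 members, 38 of the large and 29 of the small subunit. Heterozygote replicate 3 held the highest value of 37, 23 of the large and 14 of the small subunit. In bulk samples, fewer cells of 1 kind and less RNA per cell cannot be told apart.

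**Figure D2:**
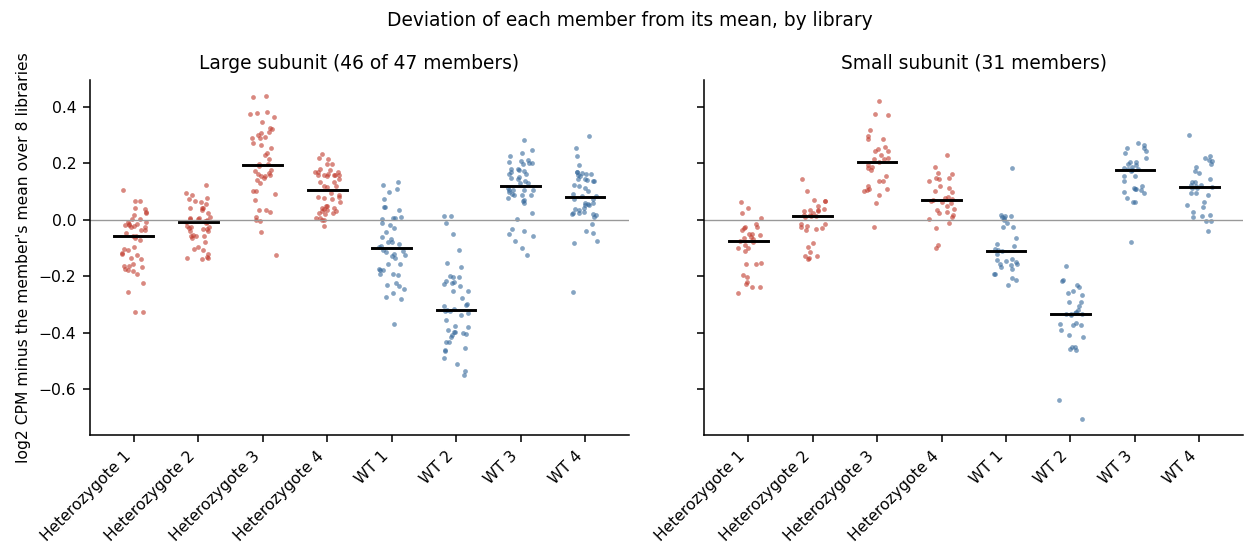
Each point is 1 member, its log2 CPM minus its own mean over the 8 libraries, for the large subunit (left panel, 46 members, Rpl39l left out) and the small subunit (right panel, 31 members), with Heterozygote libraries in red and WT libraries in blue and a black bar at the median. WT replicate 2 lies lowest, with medians of -0.32 and -0.33, and Heterozygote replicate 3 highest, with 0.19 and 0.21.

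As shares of all assigned fragments, without TMM scaling, the large subunit took 3.01%, 2.99%, 3.41% and 3.26% in Heterozygote replicates 1 to 4 (mean 3.17% ± 0.203, SD, n = 4), against 3.12%, 2.79%, 3.17% and 3.32% in WT replicates 1 to 4 (mean 3.10% ± 0.224, SD, n = 4). The small subunit took 2.51%, 2.60%, 2.92% and 2.73% in Heterozygote replicates 1 to 4 (mean 2.69% ± 0.177, SD, n = 4), against 2.66%, 2.34%, 2.85% and 2.91% in WT replicates 1 to 4 (mean 2.69% ± 0.261, SD, n = 4). The groups overlapped in both subunits, and the differences of 0.0654 and -0.00475 percentage points were smaller than the SD of either group. The ratio of small to large subunit fragments was 0.848 ± 0.0178 in Heterozygote and 0.866 ± 0.0276 in WT libraries (SD, n = 4 each), with ranges of 0.832 to 0.870 in Heterozygote and 0.837 to 0.899 in WT that overlapped. Pseudogenes were counted by symbol, as an Rpl or Rps name with a -ps ending. Fragments of 290 such pseudogenes, 233 of them detected, came to 0.0902% ± 0.00717 in Heterozygote and 0.0945% ± 0.00423 in WT libraries (SD, n = 4 each). Pseudogenes under other names, such as Rpl32l, were not in this sum.

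Members varied less than other genes. The SD of log2 CPM over the 8 libraries was 0.19 at the median of 77 members (0.19 in the large and 0.20 in the small subunit, Rpl39l left out), against 0.48 over all 13992 genes tested, and each of the 77 lay below that all-gene median. Sampling error is smaller at high counts, so this comparison mixes abundance with variation. Rpl18 was among the steadiest large subunit members, with an SD of 0.09, and the steadiest of the small subunit were Rps19 and Rps9, with 0.12 and 0.13. The most variable of the small subunit were Rps12 and Rps27l, both at 0.33, and in the large subunit Rpl35 followed Rpl39l with 0.32. Over the 77 members the SD went with shorter coding sequence, with Pearson's r of -0.47 and Spearman's rho of -0.51, and the points share all 8 libraries. Coding lengths ran from 75 bases in Rpl41 to 1257 bases in Rpl4. Within libraries, the deviation of members correlated with coding length at r = 0.52 in Heterozygote replicate 1 and at -0.39 in Heterozygote replicate 3, against 0.33 in WT replicate 2 and -0.35 in WT replicate 4, so long and short members were displaced differently by library within both genotypes. Whether length bears on the difference between genotypes was read from the members as r = -0.01 between log2 fold change and coding length, and r = -0.34 with GC content.

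The comparison between genotypes asked whether loss of 1 Gata2 allele goes with another level of ribosomal protein transcripts. No member passed an adjusted p of 0.05 in edgeR's quasi-likelihood test, which called 0 of 13992 genes (0.0%). All 78 members passed the filter on low counts. No member reached an unadjusted p of 0.05 either, where the background was 792 of 13992 genes (5.66%), 2.37% higher and 3.29% lower in Heterozygote libraries. By DESeq2, which called 29 genes (0.207%), 0 members were called and 0 had an unadjusted p under 0.05, where the background was 7.4%. By limma-voom 0 were called while 7 large and 1 small subunit members had an unadjusted p under 0.05, where the background was 10.4%. Log2 fold changes of Heterozygote over WT were positive in 35 of 47 large subunit members, with a median of 0.09 and a range from -0.09 to 0.31. They were positive in 25 of 31 small subunit members, with a median of 0.07 and a range from -0.09 to 0.29. Over all genes tested, 48.0% were positive and the median was -0.02. For all members but Rpl39l, the 95% interval lay between a 2-fold decrease and a 2-fold increase.

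The small positive medians kept their sign with any 1 library left out, but their size depended on single libraries. Without WT replicate 2 the medians were 0.02 for the large subunit (27 of 47 positive) and 0.004 for the small subunit (16 of 31 positive). The median of all genes was then 0.0007. Without Heterozygote replicate 3 the subunit medians were 0.04 (28 positive) and 0.02 (19 positive), where the median of all genes was -0.018. The medians were higher, at 0.16 and 0.12, without Heterozygote replicate 1, at 0.15 and 0.13 without WT replicate 3, and at 0.14 and 0.11 without WT replicate 4. Without Heterozygote replicate 2 they were 0.12 and 0.09, without Heterozygote replicate 4 0.09 and 0.07, and without WT replicate 1 0.07 and 0.05. With library size alone as the scale they were 0.04 and 0.02, where the median of all genes was -0.08. With both WT replicate 2 and Heterozygote replicate 3 left out, a choice made after their values were seen and which lowers the difference by its construction, the medians were -0.02 and -0.05, with 21 large and 7 small subunit members positive.

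**Figure D3:**
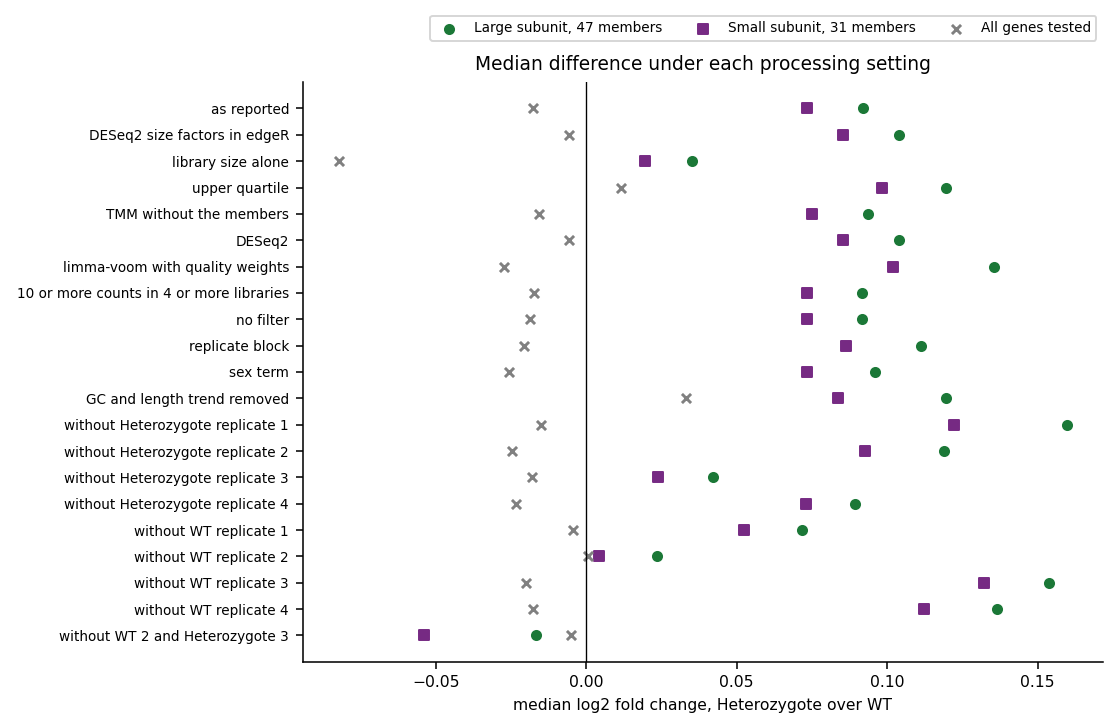
Median log2 fold change of Heterozygote over WT for 47 large subunit members (green circles), 31 small subunit members (purple squares) and all genes tested (grey crosses), as reported (top row) and under each other setting (rows below). The medians as reported are 0.09 and 0.07, and they come closest to 0 among single left-out libraries without WT replicate 2, at 0.02 and 0.004.

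Among large subunit members with positive values, the smallest unadjusted p belonged to Rpl5 (chr5:107900502-107909005, plus strand, GRCm38), which binds 5S rRNA together with Rpl11 and, in that complex, restrains the p53 inhibitor Mdm2. Rpl5 had 857, 798, 1020 and 915 CPM in Heterozygote replicates 1 to 4, against 725, 606, 894 and 791 CPM in WT replicates 1 to 4. The ranges overlapped, with WT replicate 3 above 2 of the Heterozygote libraries, and Rpl5 differed by 0.25 on the log2 scale (SE 0.13, adjusted p = 0.85). Rpl35, which sits near the exit of the peptide tunnel, had 1482, 1538, 2001 and 1661 CPM in Heterozygote replicates 1 to 4, against 1145, 1009, 1727 and 1502 CPM in WT replicates 1 to 4. WT replicates 1 and 2 were low and the groups overlapped, with a log2 fold change of 0.31 (SE 0.17, adjusted p = 0.85), and its start site is the first of the sequences above. Rpl4 (chr9:64173375-64178666, plus strand), which reaches into the same tunnel, had 2486, 2466, 2627 and 2702 CPM in Heterozygote replicates 1 to 4, against 2372, 2182, 2395 and 2379 CPM in WT replicates 1 to 4. Rpl4 was the 1 member of 78 whose libraries did not overlap. Over all 13992 genes tested, 231 (1.65%) were higher without overlap and 254 were lower. Its log2 fold change was 0.14 (SE 0.08, adjusted p = 0.85), and the exact two-sided permutation p of 0.0286 is the smallest that 4 against 4 libraries allow and was not adjusted.

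The members of the small subunit with small p among positive values included Rps12 and Rps27l. Rps12, a protein of the head of the subunit, had 158, 161, 198 and 172 CPM in Heterozygote replicates 1 to 4, against 134, 94.1, 183 and 153 CPM in WT replicates 1 to 4. WT replicate 2 was the lowest library and WT replicate 3 reached into the Heterozygote range. Rps12 differed by 0.29 on the log2 scale (SE 0.19, adjusted p = 0.851), and by 0.15 without WT replicate 2.

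Negative values were smaller. Rpl13 had 1257, 1231, 1381 and 1383 CPM in Heterozygote replicates 1 to 4, against 1484, 1366, 1243 and 1511 CPM in WT replicates 1 to 4, a log2 fold change of -0.09 (SE 0.09, adjusted p = 0.907). Rpl18 had 342, 362, 376 and 383 CPM in Heterozygote replicates 1 to 4, against 403, 374, 361 and 414 CPM in WT replicates 1 to 4, a log2 fold change of -0.09 (SE 0.09, adjusted p = 0.911). In these the WT libraries reached higher, the groups overlapped, and WT replicate 2 was not the lowest WT library. Rps14 (chr18:60774510-60778546, plus strand) had 2298, 2721, 2909 and 2517 CPM in Heterozygote replicates 1 to 4, against 2559, 2303, 3168 and 3066 CPM in WT replicates 1 to 4, a log2 fold change of -0.09 (SE 0.12, adjusted p = 0.932). Rps18, a protein of the head of the small subunit, differed by -0.06 (SE 0.12, adjusted p = 0.95). After correction for GC content and transcript length within libraries, Rpl13, Rpl18 and Rps19 turned to 0.03, 0.05 and 0.10.

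**Figure D4:**
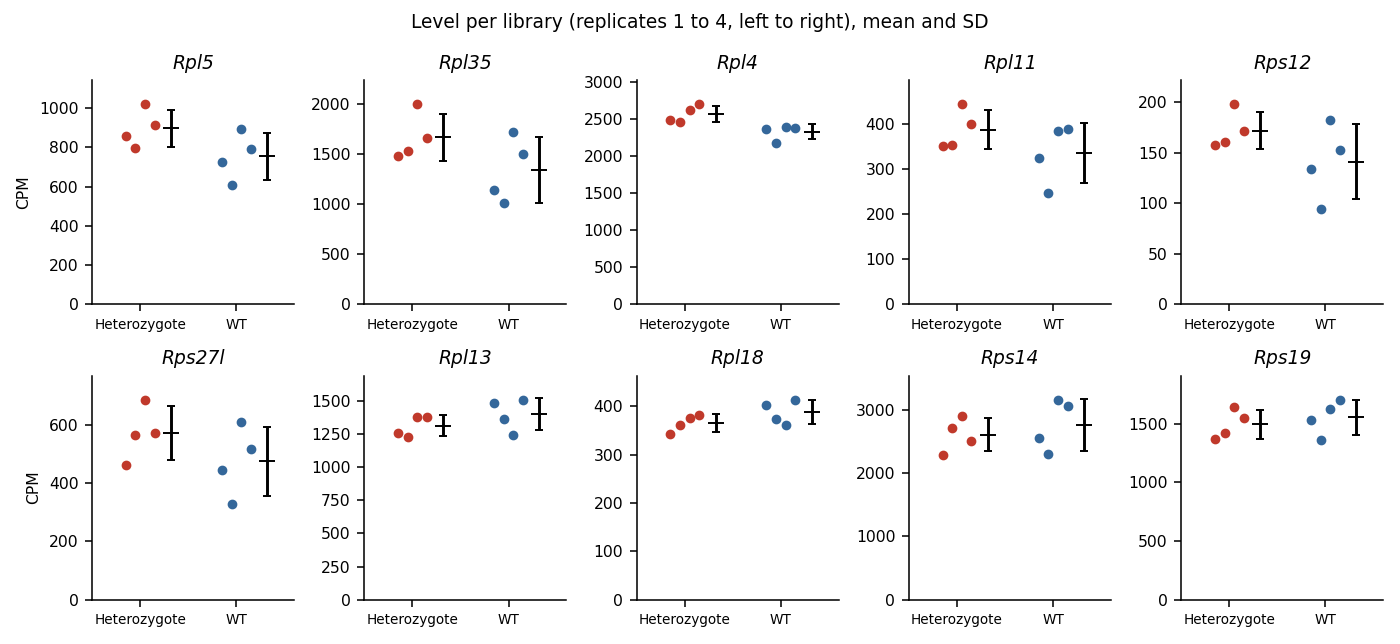
CPM in each library, Heterozygote (red) left of WT (blue), replicates 1 to 4 from left to right within a group, with the mean and SD of 4 libraries in black, for 6 members with positive and 4 with negative log2 fold changes. In Rpl4 the lowest Heterozygote library (2466 CPM) lies above the highest WT library (2395 CPM), and in the other 9 panels the groups overlap.

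A list was made of 9 members in which inherited loss of 1 copy causes Diamond-Blackfan anaemia in humans. It was chosen by hand and does not hold every member tied to this anaemia, so the values below cover these 9 alone. The 9 had a median log2 fold change of 0.14 and 0 calls. Of them 8 were positive, against 76.9% of all 78 members and 48.0% of all genes tested. The median of the 9 was 0.05 without WT replicate 2, 0.07 without Heterozygote replicate 3 and 0.09 with library size alone. Rps19 (chr7:24884371-24889806, plus strand), the gene most often affected in patients, had 1365, 1423, 1639 and 1548 CPM in Heterozygote replicates 1 to 4, against 1533, 1359, 1626 and 1704 CPM in WT replicates 1 to 4. It was the 1 of the 9 with a negative value, -0.06 (SE 0.10, adjusted p = 0.944). Rpl11, the partner of Rpl5, had 351, 354, 443 and 398 CPM in Heterozygote replicates 1 to 4, against 325, 246, 384 and 389 CPM in WT replicates 1 to 4, a log2 fold change of 0.20 (SE 0.15, adjusted p = 0.862). Others overlapped between genotypes too, with values of 0.15 in Rps26 and Rpl35a, 0.14 in Rps24, 0.08 in Rps7 and 0.003 in Rps10. The stalk members lay near 0, with log2 fold changes of 0.03 (SE 0.10) in Rplp0, 0.05 (SE 0.13) in Rplp1 and 0.07 (SE 0.12) in Rplp2. Rps27a, which is made as a fusion with ubiquitin, averaged 700 ± 53.5 CPM in Heterozygote and 645 ± 131 CPM in WT libraries (SD, n = 4 each), a log2 fold change of 0.12 (SE 0.15, adjusted p = 0.926).

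**Figure D5:**
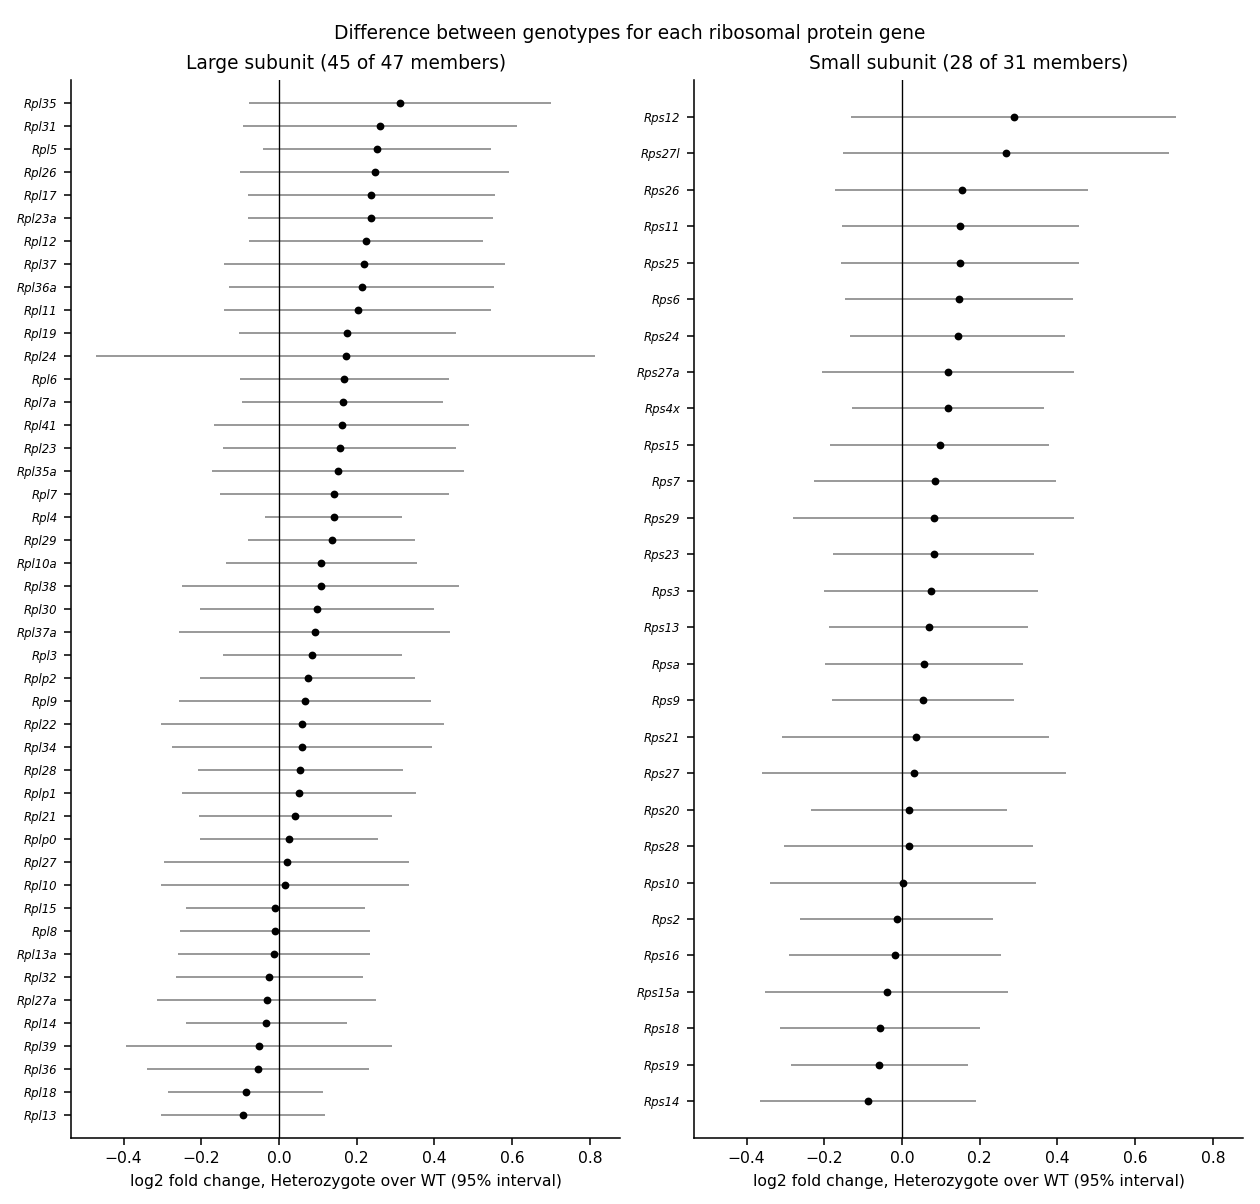
Log2 fold change of Heterozygote over WT with its 95% interval from edgeR for 45 large subunit members (left panel, Rpl39l left out because its interval runs from -3.47 to 3.37) and 28 small subunit members (right panel), sorted by value. Every interval includes 0, and the values run from -0.09 to 0.31.

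The 2 members with an l after the number stood below their partners in level. Rps27l, a close relative of Rps27 described as a p53 target, stood at 1050 ± 223 CPM per kilobase, against 3494 ± 649 for Rps27 (SD, n = 8 libraries). Rps27l had 462, 567, 687 and 574 CPM in Heterozygote replicates 1 to 4, against 445, 330, 612 and 517 CPM in WT replicates 1 to 4, a log2 fold change of 0.27 (SE 0.19, adjusted p = 0.855). Rps27 had 1006, 1220, 1540 and 1107 CPM in Heterozygote replicates 1 to 4, against 1012, 943, 1434 and 1381 CPM in WT replicates 1 to 4, a log2 fold change of 0.03 (SE 0.17, adjusted p = 0.985). In both genes the groups overlapped, and 98.5% of the windows of Rps27 occur in other transcripts, against 12% for Rps27l. Rpl39l, a paralog of Rpl39 known from testis, stood at 2.24 ± 2.81 CPM per kilobase against 219 ± 31.8 for Rpl39. Its counts were 0, 28, 18 and 42 in Heterozygote replicates 1 to 4, against 7, 0, 5 and 102 in WT replicates 1 to 4. High and near-zero libraries occurred in both genotypes, and the fitted log2 fold change of -0.05 had an SE of 1.53. Rpl39 itself had a log2 fold change of -0.05 (SE 0.15, adjusted p = 0.965).

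Ribosomal protein genes and relatives of them outside the naming rule (among them Fau, Rps3a1, Rpl22l1, Rpl36al and Rpl7l1) gave 4 of 6 positive values, a median of 0.08 and 0 calls. That median was 0.0085 without WT replicate 2, 0.04 without Heterozygote replicate 3, 0.18 without WT replicate 3, 0.13 without Heterozygote replicate 1, 0.03 with library size alone and 0.0059 after the GC and length correction. Rpl7l1, a relative of Rpl7, had 281, 326, 278 and 322 CPM in Heterozygote replicates 1 to 4, against 390, 393, 325 and 323 CPM in WT replicates 1 to 4, a log2 fold change of -0.25 (SE 0.11, adjusted p = 0.85), and the groups overlapped. Rps3a1 differed by 0.11 (SE 0.13, adjusted p = 0.926). Of 15 other TOP transcripts, mostly translation factors, 12 were positive with a median of 0.14 and 0 were called. The median was 0.09 without WT replicate 2 and 0.08 with library size alone. Tpt1, the translationally controlled tumour protein, had 390, 425, 498 and 427 CPM in Heterozygote replicates 1 to 4, against 308, 272, 413 and 377 CPM in WT replicates 1 to 4, a log2 fold change of 0.35 (SE 0.14, adjusted p = 0.85). As in the members, WT replicate 2 was its lowest library. Eif3h, a subunit of initiation factor eIF3, differed by 0.16 (SE 0.10, adjusted p = 0.85).

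Genes that build ribosomes showed no common direction. Of 40 ribosome biogenesis factors tested, 21 were positive, the median was 0.02 and 0 were called. Gar1, a box H/ACA small nucleolar ribonucleoprotein, averaged 52.8 CPM in Heterozygote and 71.8 CPM in WT libraries, a log2 fold change of -0.44 (SE 0.17, adjusted p = 0.85). Gnl3, the nucleolar GTPase nucleostemin, averaged 179.7 CPM in Heterozygote and 143 CPM in WT libraries, a log2 fold change of 0.33 (SE 0.13, adjusted p = 0.85). In both genes the libraries overlapped. Among the 40 factors, 1 was higher in Heterozygote libraries without overlap and 0 were lower, where 1.65% of all genes tested were higher without overlap. Of 13 RNA polymerase I genes, 8 were positive with a median of 0.03 and 0 calls. Rrn3, which recruits the polymerase to ribosomal DNA, differed by 0.39 (SE 0.17, adjusted p = 0.85), and Polr1c by 0.27 (SE 0.20, adjusted p = 0.859). Of 11 regulators of TOP translation, 4 were positive with a median of -0.10 and 0 calls. The list was not split by whether a gene promotes or holds back this translation, so its signs give no direction for the pathway. The gene at the median averaged 4.12 CPM in Heterozygote and 4.40 CPM in WT libraries, and its log2 fold change had an SE of 0.72. Rheb, the GTPase that activates mTOR, had 525, 592, 611 and 529 CPM in Heterozygote replicates 1 to 4, against 399.6, 376, 523 and 484 CPM in WT replicates 1 to 4. Its libraries did not overlap, where 1.65% of all genes tested were higher without overlap and 254 of 13992 were lower. Rheb differed by 0.34 on the log2 scale (SE 0.12, adjusted p = 0.85). Larp1, which binds the TOP run, averaged 16.9 CPM in Heterozygote and 23.4 CPM in WT libraries, a log2 fold change of -0.47 (SE 0.36, adjusted p = 0.863). The medians of these 3 lists changed sign with 1 library left out, to -0.02 for the biogenesis factors without Heterozygote replicate 4, to -0.03 for RNA polymerase I without WT replicate 2, and to 0.23 for the TOP regulators without Heterozygote replicate 4.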

How the data were processed

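RNA-seq libraries of 4 Heterozygote and 4 WT mice were grouped by the library descriptions. The deposited values are raw counts of fragments per gene, not normalized by the authors. Per the labels' protocols, RNA was depleted of ribosomal RNA and made into directional libraries read as pairs. Per the submitters' processing notes, Trim Galore, cutadapt and STAR 2.5.1b (GRCm38) were used. Per the file headers, featureCounts 1.6.2 counted reverse-stranded pairs over exons of GENCODE M17 (the notes name 1.5.1), without multi-mapping or multi-overlapping fragments. Symbols, lengths and windows came from GENCODE M21, matched for 53620 of 53715 genes.

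From the counts, edgeR 4.0.16 (R 4.3.3) with filterByExpr, TMM and robust quasi-likelihood fits gave two-sided p-values for genotype, adjusted by Benjamini-Hochberg over 13992 genes at a threshold of 0.05. CPM is TMM-scaled except in the marker sums and where stated, log2 CPM has a prior count of 2, and levels per kilobase use the APPRIS principal transcript. DESeq2 1.42.0 and limma 3.58.1 were alternatives, with other scalings, filters, a sex term, a replicate block, GC and length correction and each library left out. The fits were tested on simulated data. Named genes followed a rule: Gata2, the extremes of level, p and spread in each subunit, paralogs, stalk members, the listed Diamond-Blackfan members, and the 2 smallest p of each other list. Some genes taken by the rule are not reported here. Members and lists were chosen with earlier results of these data known. Floors of 3 counts cover counting error only, without molecular identifiers. Intervals of log2 fold changes come from the edgeR quasi-likelihood fits and also include variation among libraries of a group.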

Additional observations from a re-analysis of the deposited data

Results flagged for a closer look

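In the groups of 4 libraries, the highest or lowest library was set against its nearest neighbour by Dixon's criterion in 78 groups, where chance flags about 1 in 20, and 2 stood apart. Rpl4 in WT replicate 2 had a log2 CPM of 11.09, against 11.21 to 11.23 in the other WT libraries. Rpl32l, a processed pseudogene on chromosome 10 that is not a member, had 766 counts in Heterozygote replicate 2. Without TMM scaling this was 45.7 CPM, against 5.84, 6.03 and 6.44 CPM in the other Heterozygote libraries. WT libraries had 6.25 to 7.51 CPM on that scale. Rpl32 itself had 2122 CPM (TMM-scaled) in Heterozygote replicate 2 and lay inside the range of the other libraries.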

How the results depend on the processing

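No member was called by any alternative, the lowest adjusted p of any member being 0.282. Over 19 alternatives fixed with the lists, the medians of both subunits kept a positive sign. With 1 library left out they ran from 0.023 to 0.16 in the large and from 0.004 to 0.132 in the small subunit, against 0.09 and 0.07. Members with at most 50% of their windows shared, a split chosen after seeing the data, had medians of 0.06 and 0.06. DESeq2 called 29 genes where edgeR called 0. With the replicate block the medians were 0.11 and 0.09, with 7 large and 1 small subunit members at an unadjusted p under 0.05, where 6.76% of all genes were. Without WT replicate 3 there were 9 large and 5 small subunit members, against 12.5% of all genes. The same-number correlations of deviations ran from 0.00565 to 0.0961, against -0.0844 to 0.0496 between different numbers. By Xist and Y-linked transcripts, replicates 1 and 4 were female and 2 and 3 male in both genotypes. Correlations this small cannot decide whether the numbers mark pairs, and the reported fit took no pairs. The differences in share turned to -0.0388 and -0.124 percentage points without WT replicate 2. Under the GC and length correction the biogenesis factors had a median of 0.111, and Rpl13, Rpl18, Rps19 and Rps27 turned to 0.033, 0.055, 0.096 and -0.0196. With library size alone Rplp0, Rplp1, Rps10 and Rps27 turned to -0.033, -0.0044, -0.054 and -0.023. Rpl39l turned to 0.66 by limma-voom, 0.63 with the replicate block and 0.99 with the sex term. With each library left out, values ran from -0.0261 to 0.167 for RNA polymerase I, from -0.149 to 0.227 for the TOP regulators, from -0.14 to 0.045 for Rpl39, from -0.49 to 2.73 for Rpl39l, from -0.035 to 0.071 for Rplp0, from -0.024 to 0.13 for Rplp1, from -0.019 to 0.15 for Rplp2, from -0.092 to 0.086 for Rps10, from -0.12 to 0.013 for Rps18 and from -0.102 to 0.132 for Rps27. The cause of these turns was not tested. The SE of log2 fold changes, 0.08 to 0.19 in all members but Rpl24 and Rpl39l, limits what 4 libraries a group can show.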
